A study of Mus musculus with 6 samples.

Results

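Type I interferon-stimulated genes are the genes that cells switch on when interferon alpha or beta binds its receptor. A set of 35 of them was followed in T cells of the mouse after culture together with ID8 ovarian cancer cells. The members were the rows of the deposited gene table whose gene name was on the set, and all 35 were found once among the 54532 genes of the table. The set covers the cytosolic sensors Ddx58, Ifih1, Dhx58 and Zbp1, the transcription factors Irf7 and Irf9, the Ifit and Oas families, Mx1 and Mx2, the ISG15 system (Isg15, Usp18, Herc6), the effectors Rsad2, Isg20, Bst2, Eif2ak2, Samd9l, Cmpk2 and Trim30a, the ADP-ribosylation genes Parp9, Dtx3l and Parp14, and 5 further genes, Ifi44, Xaf1, Rtp4, Ifi27l2a and Ifi35.

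RNA was sequenced from 6 libraries of bulk cells, 3 in each group. In the cisplatin group (libraries 1 to 3) the ID8 cells had been treated with 40 µM cisplatin, a platinum drug that cross-links DNA, before the T cells were added. In the control group (libraries 1 to 3, named WT in the labels) the ID8 cells had received PBS. T cells of both groups came from the spleens of C57BL/6 mice, were isolated with a pan T-cell kit, were kept in interleukin 2 and were activated with beads against CD3 and CD28 before co-culture, so the controls are activated T cells too. ID8 is a mouse ovarian surface epithelial line from the same strain background. No library of ID8 cells alone or of T cells alone was analysed here, and the duration of the co-culture is not given in the sources used here. Nothing in the labels says whether the 3 libraries of a group came from separate animals or cultures, so the p-values measure only the spread between these libraries.

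As background, interferon alpha and beta bind a receptor made of IFNAR1 and IFNAR2, which activates the kinases JAK1 and TYK2. These phosphorylate STAT proteins, which join IRF9 in a complex called ISGF3 that binds a short promoter element, the interferon-stimulated response element, and starts transcription of antiviral genes. Several of those genes act in feedback: IRF7 raises interferon production further, whereas USP18 blocks the receptor.

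The core of the response element was searched for as the letters GAAA, any 2 bases and GAAA again. Promoter windows of RefSeq on GRCm38.p6, from 250 bases before to 50 bases after an annotated start site, were matched for 25 of the 35 members. The core was found on either strand, with overlapping matches allowed, in 12 of these 25 genes (48.0%), against 1079 of all 27025 genes with a window (3.99%). Counting only matches that lie before the start site, 9 members (36.0%) and 3.46% of all genes held one. The core was not particular to the set. On a wider list of other interferon-stimulated genes, described further below, 22 of 46 genes with a window (47.8%) held it, and 39.1% held it before the start site. Stretches of these 9 promoters are shown because they hold a match to the core before the start site, with the matches in capitals. Each is written along the strand of its gene, so that a match on the other strand reads TTTC, any 2 bases and TTTC.
Isg15, chr4:156200850-156200921 (minus strand): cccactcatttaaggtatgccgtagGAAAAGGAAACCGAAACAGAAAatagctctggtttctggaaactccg
Oas3, chr5:120777700-120777759 (minus strand): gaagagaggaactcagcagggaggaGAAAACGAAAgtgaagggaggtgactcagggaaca
Oas1a, chr5:120907526-120907570 (minus strand): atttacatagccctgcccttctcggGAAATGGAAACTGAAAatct
Trim30a, chr7:104465195-104465254 (minus strand): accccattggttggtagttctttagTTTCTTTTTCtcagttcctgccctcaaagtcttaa
Bst2, chr8:71537562-71537627 (minus strand): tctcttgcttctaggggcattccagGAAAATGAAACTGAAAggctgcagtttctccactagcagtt
Rsad2, chr12:26456538-26456597 (minus strand): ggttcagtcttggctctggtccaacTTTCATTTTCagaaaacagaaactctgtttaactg
Ifit3, chr19:34583348-34583441 (plus strand): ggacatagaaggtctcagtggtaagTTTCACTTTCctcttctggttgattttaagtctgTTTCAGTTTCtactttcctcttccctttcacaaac
Ifit3b, chr19:34607744-34607837 (plus strand): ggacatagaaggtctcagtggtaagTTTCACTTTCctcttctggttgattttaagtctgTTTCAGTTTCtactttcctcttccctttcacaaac
Ifit1, chr19:34640760-34640838 (plus strand): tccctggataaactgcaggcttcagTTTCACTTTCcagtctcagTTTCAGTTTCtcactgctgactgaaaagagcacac

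Isg15 had 3 overlapping matches in a row, Oas1a and Bst2 had 2 overlapping ones, and Ifit1, Ifit3 and Ifit3b each had 2 separate ones. The 94 bases printed for Ifit3 and Ifit3b were identical. Ddx58, Ifih1 and Eif2ak2 held the core only after the start site. A match is a run of letters and was not tested as a binding site.

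**Figure D1:**
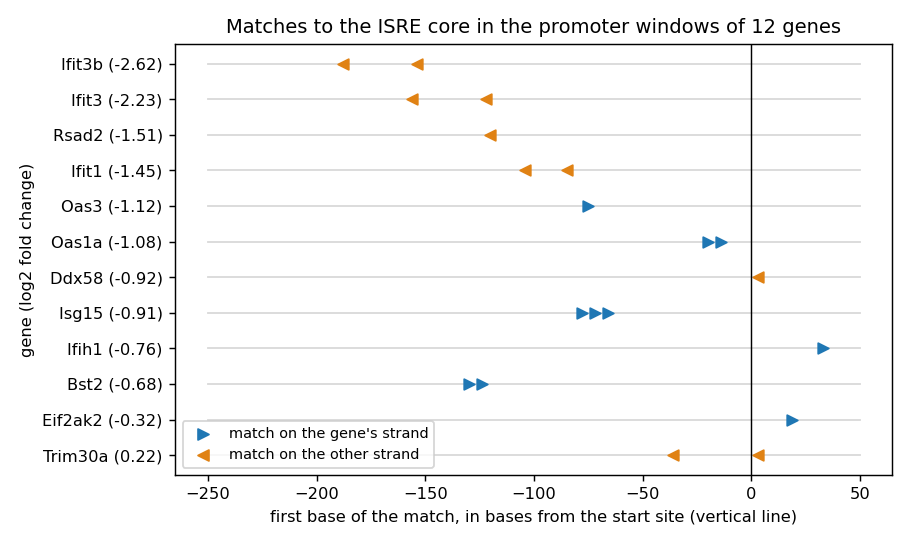
Position of each match to the core (triangle, pointing right for the strand of the gene and left for the other strand) in bases from the start site, for the 12 genes with a match, ordered by the log2 fold change of cisplatin over control given in brackets. The matches of Isg15, Oas1a and Bst2 sit close together, and both Ifit3b, at -2.62, and Trim30a, at 0.22, hold the core.

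The libraries held 30606569 to 31255205 reads on genes in the controls and 30847321 to 32169496 in the cisplatin group, and the member with the fewest reads had 179 in its lowest library. Levels are FPKM, the authors' values scaled by gene length and library size, and changes are differences of log2(FPKM + 0.1) in limma. A gene passed when its Benjamini-Hochberg adjusted p over all 15874 tested genes was under 0.05, and it was called when it also changed at least 2-fold. Of all tested genes 2034 were called lower and 653 higher, so 75.7% of calls were lower (64.6% after quantile normalisation and 95.8% after centring on T-cell genes, which sets the mean of those genes equal across libraries). After the centring 22.2% of all tested genes were called lower, in place of 12.8%. The share of all tested genes that passed after the centring is not given here. Counts of passing genes after the centring therefore stand without that background. Markers of the cells present moved with the group. Of 30 genes that mark ID8 cells 23 were tested, and 21 passed lower and 0 higher, with summed levels of 1802 to 1885 FPKM in the controls and 289 to 295 FPKM in the cisplatin libraries. Krt19, a keratin of epithelial cells, fell from 626 to 661 FPKM to 51.6 to 54.5 FPKM, and Col3a1 was listed at 0 in every library. Cd3e, of the T-cell receptor complex, was at 31.1 to 32.4 FPKM and at 39.5 to 39.8 FPKM. Of 26 T-cell genes 25 passed higher and 1 lower, with sums of 2080 to 2207 FPKM in the controls and 3271 to 3345 FPKM in the cisplatin libraries. B-cell genes were also present in these T-cell libraries, at sums of 1700 to 1788 FPKM against 3632 to 3708 FPKM. Most of each sum was 1 gene, Ighm, at 1393 to 1468 FPKM in the controls and 3188 to 3274 FPKM in the cisplatin libraries. All 10 B-cell genes passed higher (5 higher and 3 lower after the centring). Of 11 myeloid genes 9 passed higher and 1 lower (7 and 2 after the centring), with sums of 66.0 to 70.6 FPKM against 130 to 149 FPKM, and Lyz2 rose from 30.8 to 89.7 FPKM. Of 6 tested NK-cell genes 4 passed higher (2 higher and 1 lower after the centring), with sums of 62.6 to 66.7 FPKM against 83.1 to 86.5 FPKM. In such bulk samples, fewer cells of a type and less RNA per cell cannot be told apart, and the part of the cell mixture in the changes of the 35 genes was not tested.

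In the bulk libraries of T cells cultured with cisplatin-pretreated ID8 cells the interferon-stimulated genes were mostly lower, by very different amounts. On the deposited scale 27 of the 35 passed lower and 4 passed higher, against 29.0% and 27.5% of all tested genes. At the 2-fold threshold 13 members were called lower (12.8% of all tested genes) and 0 higher (4.11% of all tested genes). The median log2 fold change of the members was -0.73, beside 0.03 over all tested genes, and the members ranged from -2.84 for Oasl2 to 0.39 for Parp14. Every cisplatin library lay below every control library for 27 members (32.3% of all tested genes) and above for 5 members (31.9%). The summed level of the 35 genes was 1860 to 1882 FPKM in the controls and 1243 to 1280 FPKM in the cisplatin libraries, which was 0.618% to 0.633% and 0.412% to 0.417% of all FPKM. The 13 called genes, a split made by the size of the fall itself, summed to 643 to 658 FPKM in the controls and 193 to 194 FPKM after cisplatin, and the other 22 to 1207 to 1226 FPKM in the controls and 1050 to 1086 FPKM after cisplatin.

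**Figure D2:**
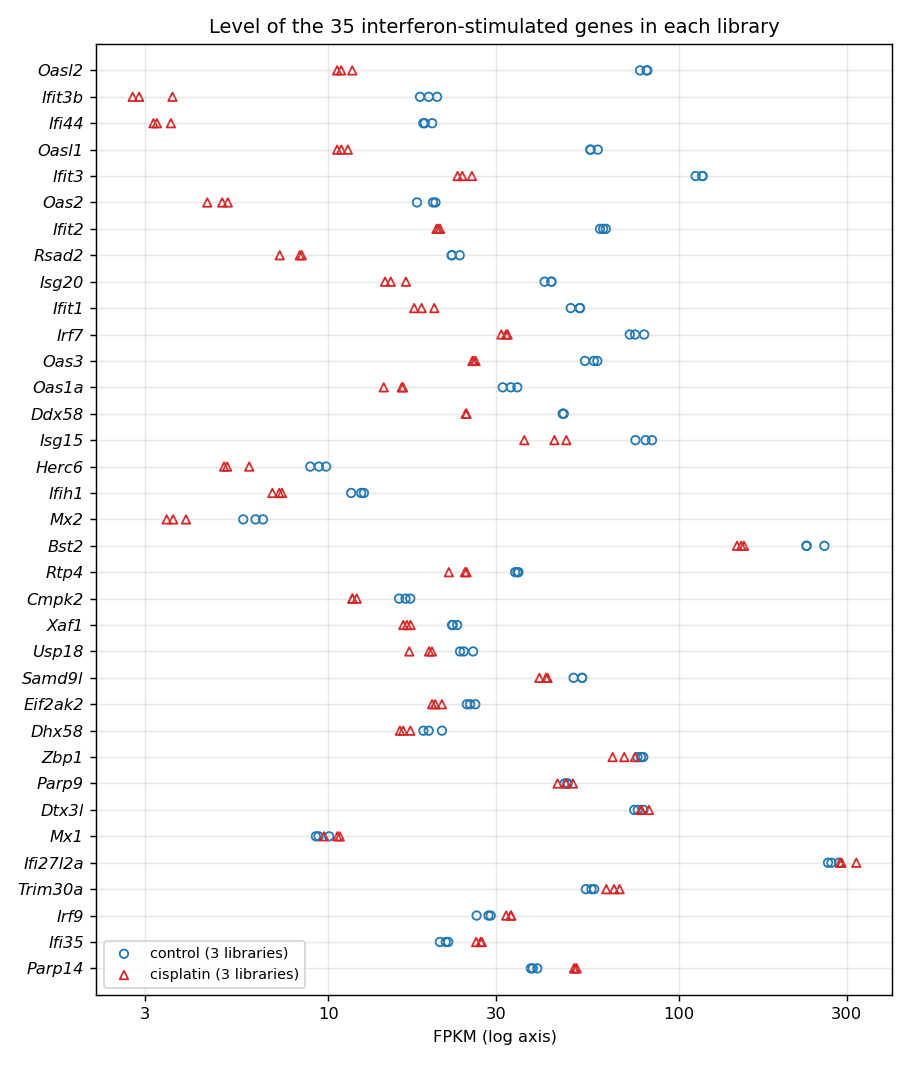
FPKM (log axis) of the 35 genes in each control library (circles, n = 3) and cisplatin library (triangles, n = 3), ordered by their change. The groups are far apart at the top, where Oasl2 went from 77.3 to 81.1 FPKM to 10.6 to 11.7 FPKM, and they overlap for Parp9, Dtx3l and Mx1 alone.

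Replicates were close. The coefficient of variation had a median of 3.20% over the members in the controls and 4.83% in the cisplatin group, and it was over 10 percent in either group for 2 members, Ifit3b (14.5%) and Isg15 (13.8%), both in the cisplatin libraries. Standard errors of the log2 fold changes ran from 0.03 for Ddx58 to 0.10 for Ifit3b.

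**Figure D3:**
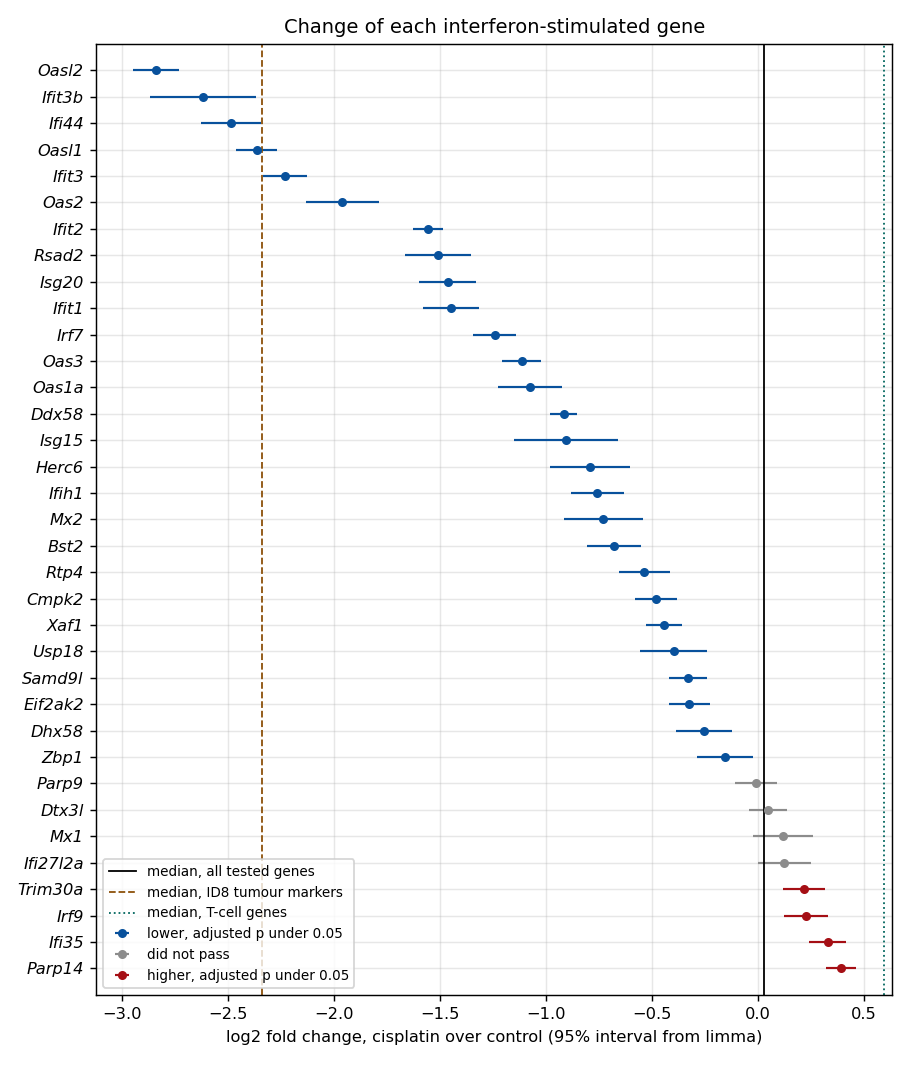
Log2 fold change of each member, cisplatin over control, with its 95% interval from limma, coloured by whether it passed. The lines mark the medians of all tested genes (0.03), of the tested ID8 markers (-2.34) and of the T-cell genes (0.60), and 31 of the 35 members lie between the last 2 lines.

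Upstream of these genes, the ligands were almost absent. None of 21 interferon genes reached the filter of a mean of 0.5 FPKM, and 13 had no read in any library. Reads of all 18 type I genes together numbered 5, 11 and 3 in the controls and 11, 11 and 11 in the cisplatin libraries. Ifnb1, which encodes interferon beta, had 2, 4 and 0 reads in the controls and 0 in each cisplatin library, where 0 allows up to 3 reads, so no difference in the ligand was detectable at this depth. Ifng, the type II interferon of activated T and NK cells, had 8, 11 and 10 reads in the controls and 18, 43 and 34 in the cisplatin libraries. Its levels were 0.247 ± 0.039 and 0.747 ± 0.291 FPKM (SD, n = 3), and with no filter on low values its log2 fold change was 1.23 ± 0.37 (SE) with an adjusted p of 0.054 by limma.

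Of 11 receptor, kinase and STAT genes 3 passed lower (27.3%, beside 29.0% of all tested genes) and 7 higher (63.6%, beside 27.5%), with a median log2 fold change of 0.17, whereas 9 passed lower and 1 higher after that centring. Ifnar1 went from 25.6 ± 0.342 to 37.6 ± 0.979 FPKM (SD, n = 3) with a log2 fold change of 0.55 (0.02 after the centring), and Ifnar2, the other receptor chain, from 16.3 ± 0.974 to 20.7 ± 0.305 FPKM with 0.34 (-0.19 after the centring). Tyk2, the kinase bound to IFNAR1, went from 15.6 to 20.6 FPKM, a log2 fold change of 0.40 that was -0.13 after the centring. Its partner Jak1 stood at 109 and 106 FPKM, with a log2 fold change of -0.04 (-0.58 after the centring) and an adjusted p of 0.20 by limma. Stat2, which carries the signal on to IRF9, fell from 67.7 to 55.0 FPKM with an adjusted p of 0.00013 by limma. The only called gene of this list was Ifnlr1, the receptor chain for interferon lambda known from epithelial cells, which fell from 1.90 to 0.459 FPKM.

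Both transcription factors of the set were measured with little error and moved in opposite directions on the deposited scale, although Irf9 also fell after centring on the T-cell genes. Irf7, on chr7:141262706-141266481 of GRCm38, had 74.8, 79.5 and 72.3 FPKM in the controls and 32.1, 32.4 and 31.1 FPKM in the cisplatin libraries. The groups were far apart, and the control mean was 2.37 times the cisplatin mean, with a log2 fold change of -1.24 ± 0.04 (SE) and an adjusted p of 1.2e-06 by limma. Irf9, the DNA-binding part of ISGF3, had 28.6, 26.4 and 29.0 FPKM in the controls and 32.1, 33.1 and 33.2 FPKM in the cisplatin libraries, a log2 fold change of 0.23 that was -0.31 after the centring. The ratio of Irf7 to Irf9 within a library does not depend on the scaling. It was 2.62, 3.01 and 2.49 in the controls and 0.9995, 0.978 and 0.938 in the cisplatin libraries, without overlap (exact two-sided permutation p = 0.1, the smallest that 3 against 3 can give), a pair chosen after the values were seen. Irf7 shares 45 bases with Phrf1 on the other strand and Irf9 shares 123 bases with Rnf31 on the same strand, and whether reads were counted by strand is not stated.

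The cytosolic sensors passed lower in 4 of 4 genes, beside 29.0% of all tested genes, Zbp1 only narrowly. On the deposited scale 0 reached 2-fold. Ddx58 encodes RIG-I, a sensor of viral RNA ends, and its libraries were nearly identical within each group, at 46.8, 46.7 and 46.5 FPKM in the controls and 24.8, 24.6 and 24.6 FPKM in the cisplatin group. Its log2 fold change was -0.92 ± 0.03 (SE), with an adjusted p of 5.8e-07 by limma. Ifih1, which encodes the long-RNA sensor MDA5, fell from 12.2 ± 0.534 to 7.17 ± 0.231 FPKM (SD, n = 3). Dhx58, which encodes LGP2, a regulator of both, fell from 19.7 to 16.5 FPKM. Zbp1, a sensor of nucleic acids in the left-handed Z form, was the weakest passing member, with 77.8, 76.1 and 79.0 FPKM in the controls and 64.6, 74.8 and 69.7 FPKM in the cisplatin libraries. Its groups did not overlap but lay close, and its adjusted p of 0.047 by limma was 0.077 to 0.12 when any library but cisplatin 2 was left out, 0.058 after quantile normalisation and 0.067 with a replicate block. The log2 fold change of Zbp1 was -0.16, and in limma's voom on rebuilt reads it was -0.07 with an adjusted p of 0.12. Among 15 other genes of interferon induction 4 passed lower (26.7%, beside 29.0% of all tested genes) and 9 higher (60%, beside 27.5%). After the centring 8 passed lower and 3 higher. Tlr3 was called lower, from 1.92 to 0.656 FPKM, and Tlr7, an endosomal RNA receptor of B cells and plasmacytoid dendritic cells, was called higher, from 6.70 to 13.7 FPKM, a log2 fold change of 1.02 that was 0.48, and no longer called, after the centring.

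The Ifit genes, whose products bind foreign RNA and block its translation, were all called lower, 4 of 4, beside 12.8% of all tested genes. Their median log2 fold change was -1.89. Ifit3, on chr19:34583531-34588731, had 111, 116 and 117 FPKM in the controls and 24.1, 25.6 and 23.3 FPKM in the cisplatin libraries. The gene went from the member with the 3rd highest level to the 15th, with a control mean 4.71 times the cisplatin mean and an adjusted p of 1.4e-07 by limma. Ifit3b, its near copy with the identical promoter stretch printed above, had 20.4, 19.3 and 18.2 FPKM in the controls and 2.77, 3.59 and 2.88 FPKM in the cisplatin libraries. Its log2 fold change of -2.62 ± 0.10 (SE) was close to that of Ifit3 at -2.23 ± 0.04 (SE), but 51.2% of the 50-base words of Ifit3 transcripts also occur in Ifit3b, and 44.5% the other way, so reads may be split between them. Ifit2 had 59.5, 60.7 and 61.8 FPKM in the controls and 20.3, 20.5 and 20.8 FPKM in the cisplatin libraries. Ifit1, which recognises RNA caps that lack methylation, had 52.2, 52.0 and 49.1 FPKM in the controls and 17.6, 18.4 and 20.03 FPKM in the cisplatin libraries. The groups did not overlap for either gene, with control means 2.95 and 2.74 times the cisplatin means.

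The fall was not shared by every gene of the Ifit locus. Between Ifit3 and Ifit3b lies Ifit1bl1, a relative of Ifit1 that was not on the set, which went from 23.6 ± 0.829 to 29.2 ± 0.783 FPKM (SD, n = 3) with a log2 fold change of 0.31 and an adjusted p of 0.00065 by limma, and with a log2 fold change of -0.23 after the centring. The ratio of Ifit3 to Ifit1bl1 within a library was 4.89, 4.75 and 4.95 in the controls and 0.800, 0.892 and 0.813 in the cisplatin libraries. The order of the 2 neighbours was thus turned around in each cisplatin library (exact two-sided permutation p = 0.1, the smallest possible), for a pair chosen after the values were seen.

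The Oas and Oasl genes were called lower as well, 5 of 5, beside 12.8% of all tested genes, with a median log2 fold change of -1.96. OAS enzymes make the messenger that switches on RNase L, and the OASL proteins are relatives. Oasl2, on chr5:114896936-114912234, had 81.1, 80.7 and 77.3 FPKM in the controls and 10.9, 10.6 and 11.7 FPKM in the cisplatin libraries. It fell from the 4th highest member to the 26th, with a log2 fold change of -2.84 ± 0.05 (SE) and an adjusted p of 1.1e-07 by limma, and 1.97% of all tested genes fell further. Its neighbour Oasl1, a known brake on translation of IRF7, had 55.9, 58.6 and 55.7 FPKM in the controls and 10.9, 10.6 and 11.4 FPKM in the cisplatin libraries. Both genes thus had overlapping levels in the cisplatin libraries and separate levels in the controls, and they share 0 of their 50-base words.

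Oas2 had 20.2, 17.9 and 19.9 FPKM in the controls and 4.51, 4.98 and 5.16 FPKM in the cisplatin libraries. Oas3 had 58.4, 57.1 and 53.9 FPKM in the controls and 26.3, 25.7 and 26.0 FPKM in the cisplatin libraries. Oas1a had 33.1, 31.4 and 34.5 FPKM in the controls and 16.2, 16.3 and 14.4 FPKM in the cisplatin libraries. No groups overlapped, and the control means were 3.95, 2.17 and 2.11 times the cisplatin means. Oas1a lay just past the 2-fold threshold, at a log2 fold change of -1.08, and was at -0.99 after quantile normalisation. Next to it, Oas1g fell from 10.4 to 1.82 FPKM, Oas1b stood at 15.97 ± 2.47 and 19.2 ± 0.504 FPKM (SD, n = 3) with an adjusted p of 0.060 by limma, and Oas1c stood at 6.59 and 6.05 FPKM. Oas1a and Oas1g share 56.9% and 54.1% of their 50-base words, so the split of their reads is uncertain.

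**Figure D4:**
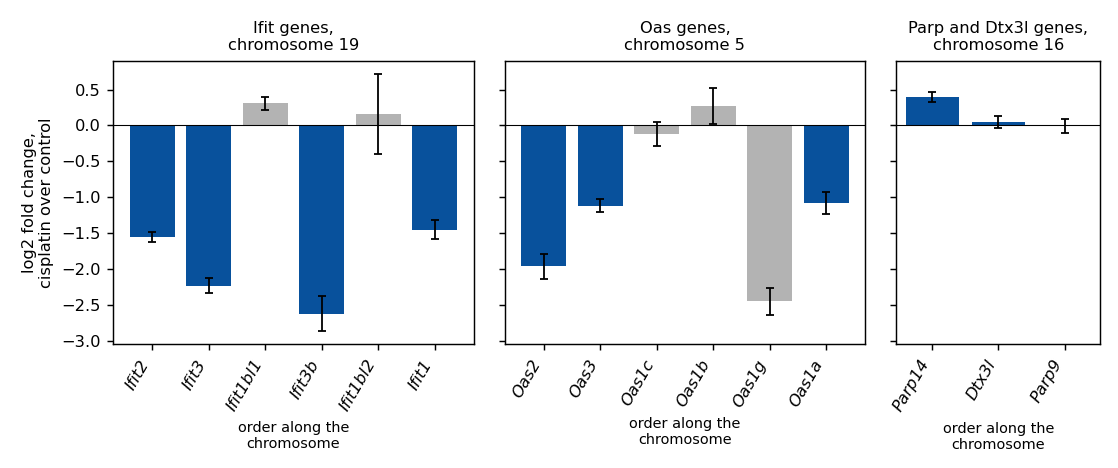
Log2 fold change of cisplatin over control with its 95% interval from limma, for neighbouring genes in their order along 3 chromosomes, with members in blue and other genes of the family in grey. In the Ifit and Oas loci genes that fell stand beside genes at or slightly above 0, such as Ifit1bl1 at 0.31, and the Parp14, Dtx3l and Parp9 locus holds values from -0.01 to 0.39.

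The Mx genes, dynamin-like GTPases that trap viral nucleoproteins, were low in every library. Mx2, annotated as a polymorphic pseudogene in the table, fell from 6.14 ± 0.399 to 3.66 ± 0.238 FPKM (SD, n = 3), a log2 fold change of -0.73. Mx1 stood at 9.54 ± 0.442 and 10.4 ± 0.568 FPKM (SD, n = 3), and its log2 fold change of 0.12 (95% interval -0.02 to 0.26) did not pass. The value was -0.42 after the centring and 0.20 in limma's voom on rebuilt reads.

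The ISG15 system passed lower in 3 of 3 genes, beside 29.0% of all tested genes, without reaching 2-fold. Isg15, a small ubiquitin-like modifier, had 75.0, 80.2 and 83.6 FPKM in the controls and 47.7, 44.1 and 36.2 FPKM in the cisplatin libraries. The groups were clearly separate although the cisplatin libraries were spread, and the log2 fold change was -0.91 ± 0.10 (SE) with an adjusted p of 0.00033 by limma. Herc6, the mouse ligase that attaches ISG15, fell from 9.37 to 5.37 FPKM, and Usp18, which removes ISG15 and blocks the receptor, fell from 24.6 to 18.7 FPKM. Ube2l6, the conjugating enzyme of the same pathway, was not on the set and was called lower, from 39.3 ± 0.879 to 13.2 ± 1.04 FPKM (SD, n = 3). Uba7, of the same pathway and also not on the set, stood at 33.6 and 31.5 FPKM and did not pass, with an adjusted p of 0.068 by limma.

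Among the effectors, Rsad2 and Isg20 were called lower, and 6 of 7 passed lower, beside 29.0% of all tested genes (7 of 7 after the centring). Rsad2 encodes viperin, which makes a chain-terminating nucleotide, and had 23.7, 22.4 and 22.5 FPKM in the controls and 8.28, 7.26 and 8.39 FPKM in the cisplatin libraries. Isg20, an RNA exonuclease, had 43.3, 43.2 and 41.3 FPKM in the controls and 16.6, 15.1 and 14.5 FPKM in the cisplatin libraries. Their control means were 2.87 and 2.77 times the cisplatin means, with adjusted p of 3.3e-06 and 2.0e-06 by limma. Cmpk2, the nucleotide kinase beside Rsad2 on chromosome 12, fell much less, from 16.5 ± 0.605 to 11.8 ± 0.195 FPKM (SD, n = 3), a log2 fold change of -0.48 against -1.51 for Rsad2.

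Bst2 encodes tetherin, which holds budding virus on the cell surface, and had the 2nd highest level of the set in both groups. It had 231, 259 and 230.35 FPKM in the controls and 153, 150.3 and 146 FPKM in the cisplatin libraries, a log2 fold change of -0.68 with an adjusted p of 5.2e-05 by limma. Bst2 is also a marker of plasmacytoid dendritic cells, on a list of 8 of which 5 were tested. Of the others on it, Ccr9 rose from 1.58 to 4.36 FPKM and Spib from 17.3 to 30.3 FPKM, Pacsin1 stood at 5.28 and 5.19 FPKM and Tcf4 at 2.40 and 2.52 FPKM, and Siglech was at 0 to 0.07 FPKM. Eif2ak2, which encodes the kinase PKR, fell from 25.5 to 20.3 FPKM, and Samd9l, a translation inhibitor, fell from 51.9 to 41.3 FPKM. Trim30a, a restriction factor, went up from 55.9 ± 1.55 to 64.9 ± 2.83 FPKM (SD, n = 3), a log2 fold change of 0.22 that was -0.32 after the centring.

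Of the ADP-ribosylation genes, 0 of 3 passed lower on the deposited scale, beside 29.0% of all tested genes, and 3 of 3 did after the centring. Parp14 had 39.4, 37.8 and 38.2 FPKM in the controls and 50.1, 50.5 and 51.0 FPKM in the cisplatin libraries. Every cisplatin library was higher, with a log2 fold change of 0.39 ± 0.03 (SE) and an adjusted p of 4.4e-05 by limma, and the value was -0.14 after the centring. Dtx3l, a ubiquitin ligase that works as a pair with PARP9, stood at 76.6 ± 2.39 and 79.2 ± 2.41 FPKM (SD, n = 3). Its log2 fold change was 0.05 (95% interval -0.04 to 0.14), -0.49 after the centring and 0.13 in limma's voom on rebuilt reads. Parp9 stood at 47.7 ± 0.561 and 47.4 ± 2.39 FPKM (SD, n = 3), with -0.01 (95% interval -0.11 to 0.09), a sign that turned under quantile normalisation and in voom. Dtx3l and Parp9 overlap by 682 bases on opposite strands. Parp12, another ADP-ribosylating enzyme that was not on the set, was called lower, from 34.1 to 11.3 FPKM.

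The ratio of Oasl2 to Parp14, the members at the ends of the order and so chosen by their values, was 2.06, 2.14 and 2.02 in the controls and 0.217, 0.210 and 0.229 in the cisplatin libraries. A pair picked in this way had to differ, and the values are given as a description.

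Of the 5 further members, Ifi44, which encodes an interferon-induced protein of uncertain function, was called lower, with 18.8, 18.6 and 19.8 FPKM in the controls and 3.24, 3.17 and 3.55 FPKM in the cisplatin libraries. Its control mean was 5.74 times the cisplatin mean and its adjusted p was 3.0e-07 by limma. Xaf1, which antagonises an inhibitor of apoptosis, fell from 22.8 to 16.7 FPKM, and Rtp4, a receptor transporter, fell from 34.5 to 23.8 FPKM, though Rtp4 overlaps Masp1 and the counting by strand is not stated. Ifi35 rose from 21.4 ± 0.601 to 27.0 ± 0.523 FPKM (SD, n = 3), a log2 fold change of 0.33 that was -0.21 after the centring. Ifi27l2a was the highest member in both groups, with 272, 266 and 286 FPKM in the controls and 290.2, 320 and 287 FPKM in the cisplatin libraries. The highest control and the lowest cisplatin library nearly touched. The log2 fold change of Ifi27l2a was 0.12, with an adjusted p of 0.082 by limma, and did not pass. It was -0.41 after the centring and 0.21 in limma's voom on rebuilt reads.

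The order of levels within the set changed between the groups. Parp14 went from 18th to 6th, Irf9 from 21st to 10th, Oasl1 from 10th to 27th and Oasl2 from 4th to 26th. Across the 35 members the control level and the log2 fold change had a Spearman rho of -0.05, and the cisplatin level and the log2 fold change one of 0.59. These are descriptions over genes of the same libraries, and a ratio shares its values with its own parts. Members with the promoter core had a median log2 fold change of -0.996 (n = 12), those with a window and no core -0.79 (n = 13), and those without a matched window -0.21 (n = 10). The core was found in 6 of 12 genes called lower and in 6 of 13 genes that were not, and before the start site in 6 of 12 and 3 of 13, differences that were not tested.

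A wider list of 53 genes known to respond to interferon gave shares near those of all tested genes for lower values. Of these 52 were tested, and 16 passed lower (30.8%, beside 29.0%) and 20 higher (38.5%, beside 27.5%). At the 2-fold threshold 8 were called lower (15.4%, beside 12.8%) and 1 higher (1.92%, beside 4.11%), and the median log2 fold change was 0.03 (37 lower and 6 higher after the centring). The called ones included Ifi204, a DNA-binding protein of the p200 family known from macrophages, which fell from 38.1 ± 1.87 to 4.003 ± 0.421 FPKM (SD, n = 3), and Phf11d, from 9.22 to 1.22 FPKM. Apol9a and Apol9b fell from 16.4 to 2.27 and from 42.8 to 5.79 FPKM, though they share 57.5% and 51.4% of their 50-base words. Ifitm2, of the family that blocks virus entry, fell from 21.8 to 8.96 FPKM, whereas Ifitm1 was the gene called higher, from 4.95 to 10.3 FPKM, a log2 fold change of 1.04 that was 0.51, and no longer called, after the centring. Among those that passed higher were Slfn2, from 107 to 175 FPKM, and Ms4a4b, from 56.2 to 102 FPKM, both named after their values were seen. Of the 16 GTPase genes best known for induction by interferon gamma 7 passed lower (43.75%, beside 29.0%), 7 higher (43.75%, beside 27.5%) and 0 were called. Their median was 0.08 (12 lower and 0 higher after the centring). Gbp3 fell from 75.6 to 38.2 FPKM and Gbp4 went from 47.4 to 72.9 FPKM (log2 fold change 0.62, and 0.09 after the centring), again named after their values were seen. Among 9 inhibitors of the pathway 8 were tested. Of these 5 passed higher (62.5%, beside 27.5%) and 3 lower (37.5%, beside 29.0%), against 1 and 6 after the centring. Ptpn6, a phosphatase of blood cells, was called higher, from 43.8 to 89.9 FPKM. Its log2 fold change of 1.04 was 0.50, and no longer called, after the centring.

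**Figure D5:**
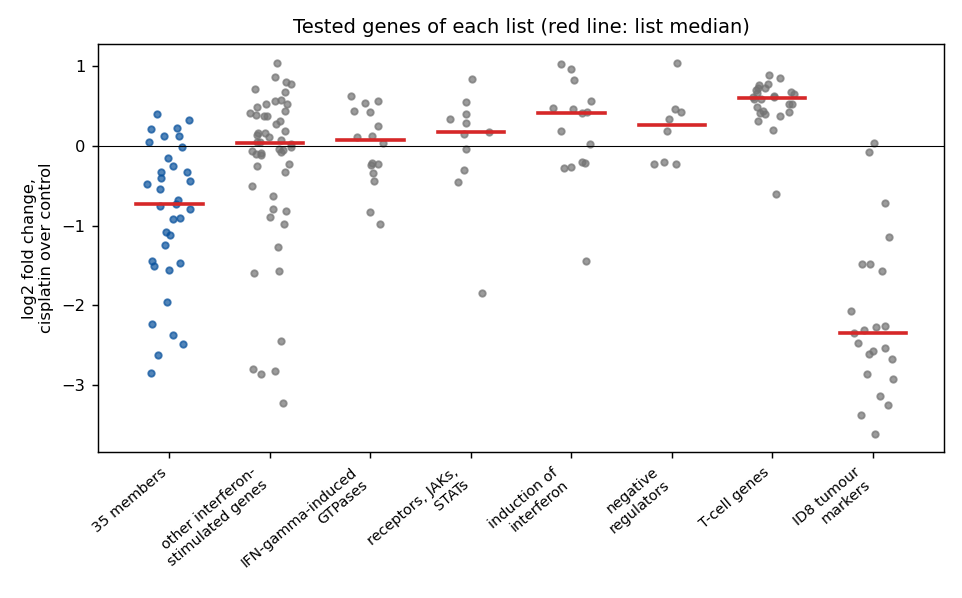
Log2 fold change of cisplatin over control for each tested gene of 8 lists, with the list median as a red line. The 35 members spread from -2.84 to 0.39 around a median of -0.73, between the ID8 markers at -2.34 and the T-cell genes at 0.60, and the other lists of the interferon pathway have medians from 0.03 to 0.41.

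How far the members fell can be read only against a scale. Of the 35 genes, 4 fell as far as the median ID8 marker or further (Oasl2, Ifit3b, Ifi44 and Oasl1), 0 rose as far as the median T-cell gene and 31 lay between. With centring on the 26 T-cell genes, the median of all tested genes moved from 0.03 to -0.51 and that of the members to -1.26. On that scale 35 of 35 members passed lower and 21 were called lower, beside 22.2% of all tested genes called lower. Quantile normalisation, which shifted the median of all genes to 0.16, gave 26 members lower and 5 higher. It called 12 members lower, beside 11.3% of all tested genes. In limma's voom on rebuilt reads, with a shift to 0.11, 26 members were lower and 7 higher. There 12 were called lower, beside 12.2% of all tested genes. Over all scalings tried 27 members kept their sign, and the 8 others were Parp9, Dtx3l, Mx1, Ifi27l2a, Trim30a, Irf9, Ifi35 and Parp14.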

How the data were processed

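RNA of 6 libraries of T cells co-cultured with ID8 cells was sequenced. The authors deposited FPKM values per gene, which are reads scaled to the length of the gene and the size of the library. The submitters' processing notes name fastp, HISAT2 2.0.5, featureCounts 1.5.0-p3 and mm10, whereas the study's methods name LifeScope, and neither states counting by strand. Groups were taken from the sample labels, and 0 columns held other samples. Coordinates were the same as in GENCODE M21 (GRCm38) for all 35 members.

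Reads were rebuilt from the FPKM, of which 100% were within 0.1 of a whole read. These gave depth and a floor of 3 reads, for counting error only. The library size that the FPKM imply, divided by the reads on genes, was 0.976 to 0.982 in the controls. In the cisplatin group it was 1.03 to 1.05, so FPKM were set lower against reads on genes in the cisplatin libraries than in the controls. log2(FPKM + 0.1) was tested for 15874 of 33456 genes, those whose mean reached 0.5 FPKM, in limma 3.58.1 (R 4.3.3; lmFit, eBayes with a trend), cisplatin against control, with Benjamini-Hochberg adjustment over all tested genes. limma's voom on the rebuilt reads, with the reads on genes as library size, was an alternative. In it the median log2 fold change of all tested genes was 0.11 in place of 0.03, so small changes depend on this choice. Centring subtracted the mean log2 level of 26 T-cell genes from each library. The fit was checked on simulated data. Pseudocount, filter, scaling, threshold, replicate block and each library left out were varied. No libraries held identical values. All members were allowed to be named, pathway genes where called, receptors, kinases, STATs and neighbours of a member's family, and other genes named were chosen after their values were seen. The members, lists and tests were chosen with earlier results of these data known. The result of 1 gene of the pathway lists is not reported here.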

Additional observations from a re-analysis of the deposited data

How the results depend on the processing

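The 13 members called lower stayed at 13 with each library left out, with pseudocounts of 1 and 0.01, with either filter and at an adjusted p under 0.01. They numbered 12 after quantile normalisation and in voom, where Oas1a missed 2-fold (-0.99 and -0.997), 21 after centring on the T-cell genes, and 27 with no minimum fold, where 4 members were higher. The median log2 fold change of the members was -0.68 with a pseudocount of 1, -0.63 after quantile normalisation, -1.26 after centring and -0.66 in voom, and -0.73 to -0.69 with a library left out. Of all genes, 903 were called lower and 242 higher with a mean of at least 5 FPKM, 3517 and 153 after centring, and 4603 and 4360 with no minimum fold, and 311 were higher with a pseudocount of 1 and 255 among protein-coding genes. With a library left out 1963 to 2045 were lower and 579 to 692 higher.

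For Parp9 the log2 fold change of -0.01 turned to 0.030 after quantile normalisation and to 0.074 in voom, and it ran from -0.045 without cisplatin replicate 3 to 0.028 without cisplatin replicate 1. After centring Mx1 turned to -0.42, Irf9 to -0.31, Ifi27l2a to -0.41, Parp14 to -0.14, Dtx3l to -0.49, Trim30a to -0.32 and Ifi35 to -0.21, by the construction of that scale. Of 698 values of single members under an alternative, 660 kept their direction and their side of the call, 26 were newly called, 2 lost the call and 10 turned. The call needed adjusted p and 2-fold, except in the alternative with no minimum fold, where adjusted p alone sufficed. That alternative, with 27 members lower and 4 higher in place of 13 and 0, added new calls that did not reach 2-fold. By adjusted p alone, Zbp1 lost the threshold in 10 alternatives.

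Same-numbered libraries deviated from their group means with correlations of 0.02, -0.06 and -0.02. These values showed no shared signal, but they cannot tell whether the libraries were prepared in pairs. With the replicate number as a block 13 members were lower and 0 higher, beside 2011 and 651 genes, and 26 members passed lower in place of 27, Zbp1 being the one lost. Each group had 3 libraries. Depth limits the type I ligand genes, of which the highest had 9 reads in a library.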
